A study of Mus musculus with 16 samples.

Results

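The odor by sort interaction asks of each gene whether its difference between the 2 sorted libraries of a pool of mice moved when the mice smelled isoamyl acetate, the ester known for the smell of banana. It was formed in all 16 libraries of the series, which are the 2 sorts of 8 pools. In each pool the log2 signal of the library titled GFP- was taken from that of the library titled GFP+, and the 4 odor pools were then compared with the 4 vehicle pools. A negative interaction means that the gene moved toward the library titled GFP- when odor was given. After control probe sets were left out, 22206 of 28846 probe sets remained, among them 1106 receptor genes (1091 odorant receptors with Olfr symbols and 15 trace amine-associated receptors with Taar symbols).

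All mice were of strain C57BL/6 and carried the GFP reporter of the Kentucky assay, which is known to be a tauGFP at the S100a5 locus, although the labels do not spell out the allele. Mice of both sexes, 7 to 12 weeks old, were kept singly in chambers of clean air for 40 hours, and both arms got pulses of 10 seconds every 20 minutes from hour 26 on. The pulses were isoamyl acetate in the odor arm and filtered air in the vehicle arm. Each pool held the dissociated olfactory mucosa of 3 mice and gave 1 library titled GFP+ and 1 titled GFP-, so each arm has 4 libraries titled GFP+ and 4 titled GFP-.

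The labels contradict themselves on the sort. In all 16 samples the cell type field gives the GFP sign opposite to that of the title. S100a5, the gene behind the reporter, was the higher in the library titled GFP- in 8 of 8 pools. The libraries are therefore called by their titles here, and a move toward the library titled GFP- is a move toward the library with more S100a5 RNA.

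Each mature olfactory sensory neuron transcribes a single odorant receptor gene out of a very large family, and the receptor sets which odorants excite the cell. S100a5, a calcium-binding protein gene, is switched on in these neurons by activity, so a reporter at its locus brightens neurons that have been firing. A receptor whose neurons answer an odor is known to pass, in such an assay, from the dim to the bright fraction of sorted cells when the odor is given. In RNA from bulk sorted cells, more or fewer cells of a type and more or less RNA per cell cannot be told apart.

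Array medians were 6.42 to 6.52 in libraries titled GFP- and 6.79 to 6.90 in those titled GFP+. The median of the negative control probe sets, used below as the background level, was 5.15 to 5.67 on the log2 scale, and its own interaction was 0.16. Between 900 and 984 receptors per library exceeded it. Of the 1106 receptors, 754 did so in all 16 libraries and 57 in none. Omp, the marker of mature olfactory neurons, read 17.99 to 18.59 in every library. Kdm5d, a gene of the Y chromosome, separated the pools. It read 5.90 to 7.86 in the 8 libraries of pools numbered 1 and 2 and 2.29 to 3.20 in the 8 libraries of pools numbered 3 and 4, in both arms. The sexes of the pools are not given in the labels. Values within each of these sets of pools are printed beside some of the results, and where they are not, the sets need not be alike.

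No probe set passed the interaction test. With limma on the 8 pool differences, 0 of 22206 probe sets (0%) had an adjusted p below 0.05, and 1092 (4.92%) had an unadjusted p below 0.05. The 4 odor pools did not overlap the 4 vehicle pools in 651 probe sets (2.93%). The genes below are therefore described by values that did not pass, except where an odor effect within 1 sort is named.

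Olfr170, an odorant receptor gene of chromosome 16, came nearest. Its coding start, and that of Olfr213, a chromosome 6 receptor with the next largest difference among those that did not overlap, are shown because they identify the receptors with the 2 largest differences of that kind and are unlike each other. They are the first 50 coding bases in RefSeq on build GRCm38.p6, from chr16:19606617-19606666 on the minus strand and chr6:116540455-116540504 on the plus strand, with the start codon in capitals.
Olfr170: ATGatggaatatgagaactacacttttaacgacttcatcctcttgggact
Olfr213: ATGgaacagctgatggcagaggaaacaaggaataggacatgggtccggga
Compared position by position, without alignment, with the same stretch of 685 other Olfr genes, Olfr170 was most like Olfr340 (33 of 50 bases identical) and Olfr213 most like Olfr1018 (25 of 50). Olfr340 itself had an interaction of -0.23 (SE 0.25).

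In vehicle, Olfr170 read 11.68, 11.20, 10.87 and 10.66 in the libraries titled GFP+ of pools 1 to 4 and 10.07, 9.65, 10.82 and 10.10 in those titled GFP-. With odor it read 9.69, 9.86, 9.97 and 10.12 in those titled GFP+ and 12.55, 12.16, 12.30 and 12.08 in those titled GFP-. All 4 odor libraries titled GFP- thus lay above the other 12 libraries, and all 4 odor libraries titled GFP+ lay below their vehicle counterparts. The sort difference was 1.61, 1.55, 0.05 and 0.57 in the vehicle pools (mean 0.94 ± 0.76, SD, n = 4) and -2.86, -2.30, -2.33 and -1.96 in the odor pools (mean -2.36 ± 0.37, SD, n = 4), with no overlap. The interaction was -3.30 (SE 0.35, 95% confidence interval -4.10 to -2.51), with an unadjusted p of 3.412e-06 and a limma adjusted p of 0.0758, short of the threshold. It was -4.15 in pools 1 and 2 and -2.45 in pools 3 and 4. With 1 pool left out at a time it ran from -3.60 to -3.08, and it passed without vehicle pool 3 (adjusted p = 0.0232), the vehicle pool with the smallest sort difference.

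The odor effects on Olfr170 had opposite signs in the 2 sorts. In libraries titled GFP- its level was 10.16 ± 0.48 (SD, n = 4) in vehicle and 12.27 ± 0.20 with odor, a rise by 2.11 (SE 0.23) that passed in the fit over all 16 arrays (limma adjusted p = 0.000854). In libraries titled GFP+ it was 11.10 ± 0.44 and 9.91 ± 0.18, a difference of -1.19 that did not pass (adjusted p = 0.416). When the 16 libraries were fitted without the pool as a block, the interaction of Olfr170 passed (limma adjusted p = 0.000416). It was then the 1 probe set called of 22206 (0.0045%). That fit takes the 2 libraries of a pool as independent although they come from the same mice, so it is no second support. The odor effects within a sort, here and below, come from the same fit. Each compares libraries of separate pools, but its estimate of the spread takes the 2 libraries of a pool as independent.

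**Figure D1:**
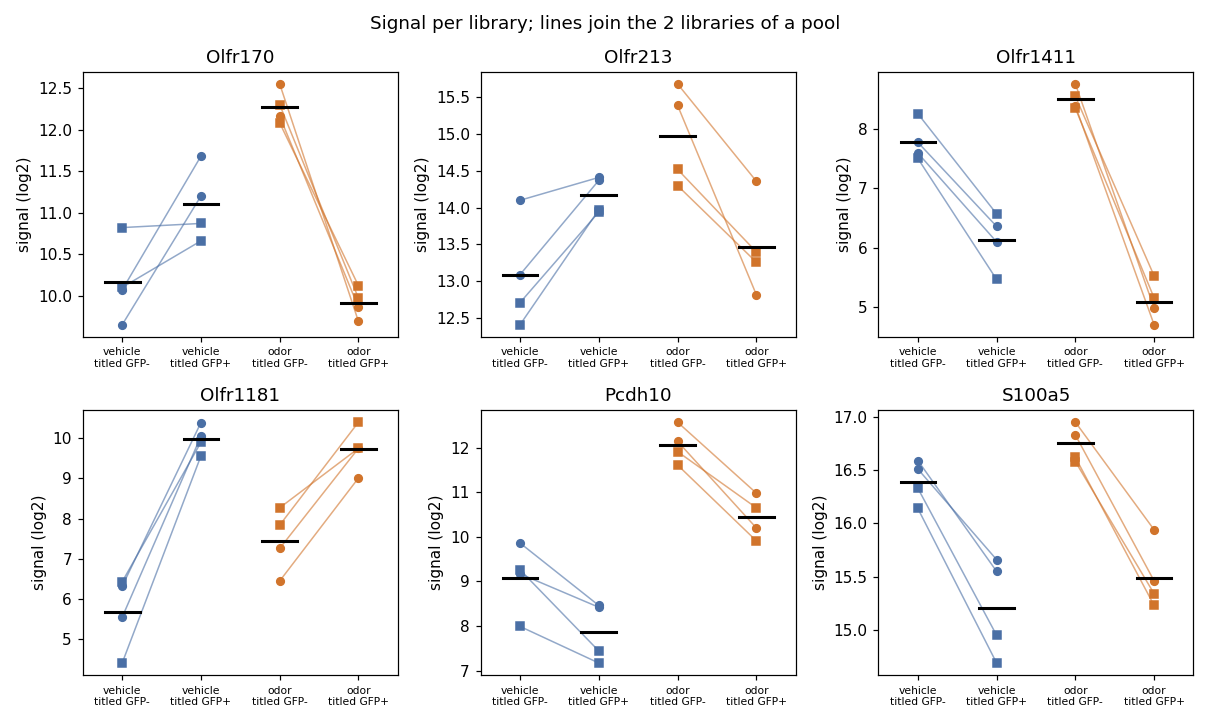
Log2 signal of Olfr170, Olfr213, Olfr1411, Olfr1181, Pcdh10 and S100a5 in each of the 16 libraries, in 4 groups; thin lines join the 2 libraries of a pool, circles are pools 1 and 2, squares pools 3 and 4, and bars are group means. The lines of Olfr170 and Olfr213 tilt up in the 4 vehicle pools and down in the 4 odor pools, while those of S100a5 tilt down in all 8.

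Olfr213, like Olfr170, was higher in opposite sorts in the 2 arms. In vehicle it read 14.37, 14.41, 13.94 and 13.97 in libraries titled GFP+ and 13.09, 14.10, 12.71 and 12.41 in those titled GFP-. With odor it read 12.82, 14.36, 13.26 and 13.40 in libraries titled GFP+ and 15.39, 15.68, 14.30 and 14.52 in those titled GFP-. It was the more abundant in the library titled GFP+ in all 4 vehicle pools and in the library titled GFP- in all 4 odor pools. Its sort difference was 1.28, 0.31, 1.23 and 1.56 in vehicle (mean 1.09 ± 0.54, SD, n = 4) and -2.57, -1.33, -1.04 and -1.12 with odor (mean -1.51 ± 0.72, SD, n = 4). The interaction of -2.61 (SE 0.37, 95% confidence interval -3.44 to -1.77) had an adjusted p of 0.229. It was -2.74 in pools 1 and 2 and -2.48 in pools 3 and 4. The odor effect was 1.89 in libraries titled GFP- (adjusted p = 0.42) and -0.71 in those titled GFP+.

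Over all probe sets, the vehicle sort differences were all above 0 and the odor ones all below 0 in 29 of 22206, and in the opposite order in 27. The 29 hold 2 receptors, Olfr170 and Olfr213, and the 27 hold 0.

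Olfr1411, a chromosome 1 receptor, has a neighbour with nearly the same coding start, so the array may not separate the pair well. The 50 bases of Olfr1411 (chr1:92596521-92596570, plus strand) and Olfr1410 (chr1:92607839-92607888, plus strand) on GRCm38.p6 are shown because the likeness bears on whose RNA was measured, and the capitals mark the 7 positions at which they differ.
Olfr1411: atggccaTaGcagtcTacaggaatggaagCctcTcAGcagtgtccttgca
Olfr1410: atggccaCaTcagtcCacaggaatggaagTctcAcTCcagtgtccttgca
The probe sequences were not used here, so which of the genes each probe binds was not tested. Olfr1411 was higher in the library titled GFP- in all 8 pools. Its sort difference was -1.49, -1.41, -1.68 and -2.04 in vehicle (mean -1.65 ± 0.28, SD, n = 4) and -3.67, -3.76, -3.01 and -3.18 with odor (mean -3.41 ± 0.37, SD, n = 4), which did not overlap. The interaction was -1.75 (SE 0.22, adjusted p = 0.114), with -2.27 in pools 1 and 2 and -1.24 in pools 3 and 4. In odor libraries titled GFP+ it read 4.71, 4.99, 5.53 and 5.16, above the background level in 1 of 4, and with all values raised to that level the interaction was -1.43. Olfr1410 had a sort difference of -1.32 ± 0.71 (SD, n = 4) in vehicle and -1.73 ± 1.09 with odor, and an interaction of -0.41 (SE 0.52).

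Olfr1181, a chromosome 2 receptor, was the more abundant in the library titled GFP+ in all 8 pools, and by less in each odor pool than in any vehicle pool. In libraries titled GFP- it read 5.55, 6.32, 6.43 and 4.41 in vehicle and 6.45, 7.26, 8.27 and 7.84 with odor, higher in every odor library than in any vehicle one. In libraries titled GFP+ it read 10.05, 10.39, 9.90 and 9.56 in vehicle and 9.01, 9.75, 9.75 and 10.40 with odor, and the groups overlapped. The sort difference was 4.50, 4.08, 3.46 and 5.14 in vehicle and 2.56, 2.49, 1.48 and 2.57 with odor, and the interaction was -2.02 (SE 0.37, adjusted p = 0.693). In vehicle it stood above background in 2 of 4 libraries titled GFP-. With values raised to the background level the interaction was -1.73.

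The next 6 receptors by p among those with a negative interaction and no overlap did not pass either. Olfr1126 of chromosome 2 had sort differences of -1.03, -1.77, -1.60 and -1.35 in vehicle and -3.56, -2.18, -2.76 and -3.33 with odor, an interaction of -1.52 (SE 0.30). It was higher in libraries titled GFP- in the vehicle pools and more so in the odor pools. So were Olfr190 of chromosome 16 (interaction -1.30, SE 0.28), Olfr654 of chromosome 7 (-1.09, SE 0.24) and Olfr1505 of chromosome 19 (-1.03, SE 0.26). Olfr212, which stands next to Olfr213 in the genome, had sort differences near 0 in vehicle, -0.15, -0.10, 0.14 and -0.34, and of -0.93, -0.93, -0.72 and -1.41 with odor, an interaction of -0.88 (SE 0.19). Olfr301 of chromosome 7 was higher in libraries titled GFP+ in both arms, by 2.84, 1.64, 1.64 and 2.49 in vehicle and by 0.07, 1.02, 1.25 and 0.60 with odor. Adjusted p for these 6 ran from 0.693 to 0.959.

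**Figure D2:**
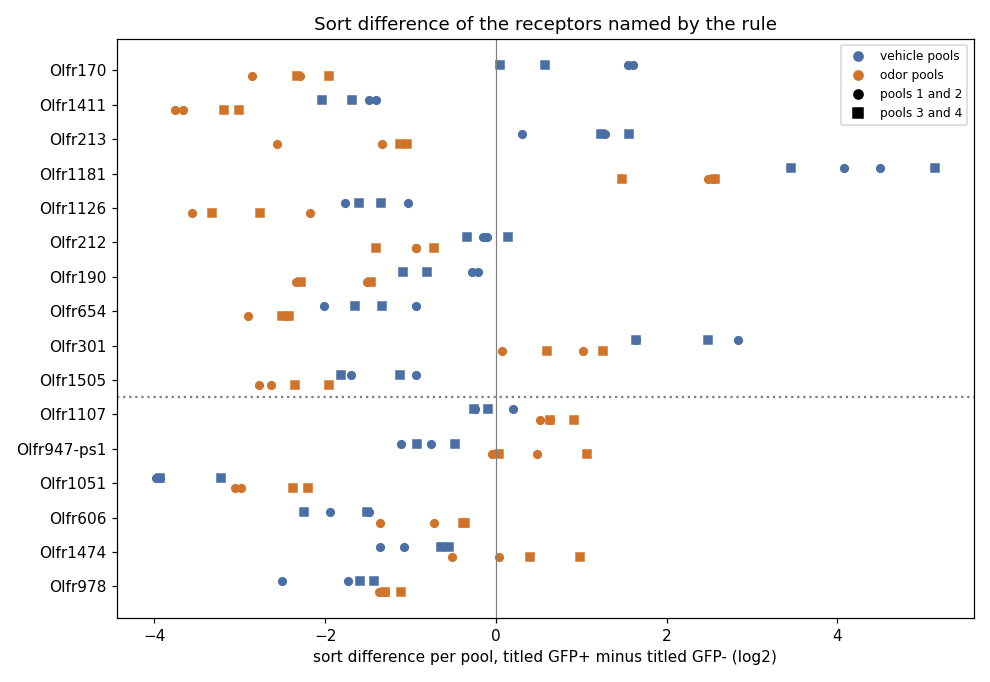
Sort difference (titled GFP+ minus titled GFP-, log2) of the 10 receptors with negative and the 6 with positive interaction that were named by the rule, 1 point per pool; blue is vehicle, orange is odor, circles are pools 1 and 2 and squares pools 3 and 4. Olfr170 and Olfr213 alone among these 16 receptors have all vehicle points above 0 and all odor points below 0.

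The 6 receptors with positive interactions and no overlap had smaller values, from 0.54 for Olfr978 to 1.20 for Olfr947-ps1, a receptor pseudogene. The latter had sort differences of -0.76, -1.11, -0.48 and -0.92 in vehicle and -0.04, 0.48, 0.04 and 1.07 with odor (SE 0.26, adjusted p = 0.752). Olfr1051 had -3.93, -3.98, -3.94 and -3.22 in vehicle and -2.99, -3.06, -2.38 and -2.20 with odor, so it stayed higher in libraries titled GFP- in all 8 pools. Olfr1107 (interaction 0.78) and Olfr1474 (1.14) were measured above background in all 16 libraries. Olfr606 (1.09) was above it in 2, and its interaction was 0.24 with values raised to the background level.

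Across the receptor family, counts at an unadjusted p below 0.05 held more negative than positive interactions under each scaling tried, while the median receptor was above 0 with centring on receptors. At an unadjusted p below 0.05, 96 of 1106 receptors (8.68%) were counted. Of these, 78 (7.05%) had a negative and 18 (1.63%) a positive interaction, against 547 (2.46%) and 545 (2.45%) of all probe sets. With each array centred on its receptors the receptor counts were 59 and 45 and those of all probe sets 121 and 526. Centred on the mature neuron markers they were 66 and 25, against 311 and 793. The pools did not overlap in 36 receptors (3.25%), 30 lower with odor (2.71%, against 1.74% of all probe sets) and 6 higher (0.542%, against 1.19%). A difference of 1 or more was reached by 39 receptors downward (3.53%) and 6 upward (0.542%), against 0.293% and 0.203% of all probe sets. Receptors also scattered more between pools. The median SD of their sort differences was 0.50 in vehicle and 0.64 with odor, against 0.28 and 0.30 over all probe sets. A fixed size is reached more readily where values scatter more, and the part of this in the counts was not tested. The median receptor interaction was -0.093 (SD 0.463 over receptors, range -3.30 to 1.25), against -0.016 (SD 0.28) over all probe sets, and it was 0.020 with centring on receptors, which moved the median of all probe sets to 0.097. As deposited, 646 receptors (58.4%) were below 0. Neighbouring and similar receptor genes are not independent of each other.

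The counts in each direction were not alike in the 2 sets of pools that Kdm5d separates, and that difference was not tested. In pools 1 and 2 alone, 180 of 1106 receptors were lower and 10 higher at an unadjusted p below 0.05. Of all 22206 probe sets, 660 were lower and 732 higher there. In pools 3 and 4 alone, 50 receptors were lower and 108 higher, against 495 and 531 of all probe sets. The median receptor interaction was -0.30 in the first set and 0.11 in the second. The median receptor's sort difference was -0.93 and -0.82 in odor pools 1 and 2 but -0.28 and -0.35 in odor pools 3 and 4, while the vehicle pools lay at -0.45, -0.70, -0.43 and -0.43. The counts also moved with single pools. Without odor pool 1, 59 receptors were lower and 48 higher, against 437 and 453 of all probe sets. Without odor pool 2 it was 81 and 31, against 582 and 595. Without odor pool 3 it was 123 and 16, against 626 and 704. Whether the difference between these pools has to do with sex or with the sort was not tested.

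A smaller group had values of 1 sign and of some size in both sets of pools. The interaction was -1 or lower in pools 1 and 2 and also in pools 3 and 4 for 17 of 1106 receptors (1.54%), against 24 of all 22206 probe sets (0.108%), and 1 or higher in both for 1 receptor (0.0904%, against 15 probe sets, 0.0675%). This too is a fixed size, which the wider scatter of receptors between pools makes easier to reach. The 17 are Olfr170, Olfr183, Olfr213, Olfr1181, Olfr1480, Olfr1411, Olfr1126, Olfr397, Olfr1383, Olfr301, Olfr1221, Olfr1451, Olfr286, Taar4, Olfr266, Olfr461 and Olfr412, a set drawn up after the values were seen, and the 1 is Olfr947-ps1. Not all of the 17 were above background throughout. Olfr461 was above it in 8 of 16 libraries and Olfr397 in 10. In libraries titled GFP- their means were 3.45 and 4.90 in vehicle and 4.00 and 5.40 with odor, so these values lie at or below the background. Taar4, a trace amine receptor, had an interaction of -1.13 (SE 0.38), with -1.14 in pools 1 and 2 and -1.13 in pools 3 and 4, and its pools overlapped. Olfr1480 of chromosome 19 had -1.80 (SE 0.47) without overlap.

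Olfr183, a chromosome 16 receptor, had the second largest interaction among receptors but scattered widely. Its sort difference was 1.63, -0.12, 2.28 and 2.98 in vehicle and -1.68, -2.34, -1.15 and 0.56 with odor, so 1 pool of each arm ran against the others. The interaction was -2.85 (SE 0.72, adjusted p = 0.959), with -2.77 in pools 1 and 2 and -2.93 in pools 3 and 4.

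**Figure D3:**
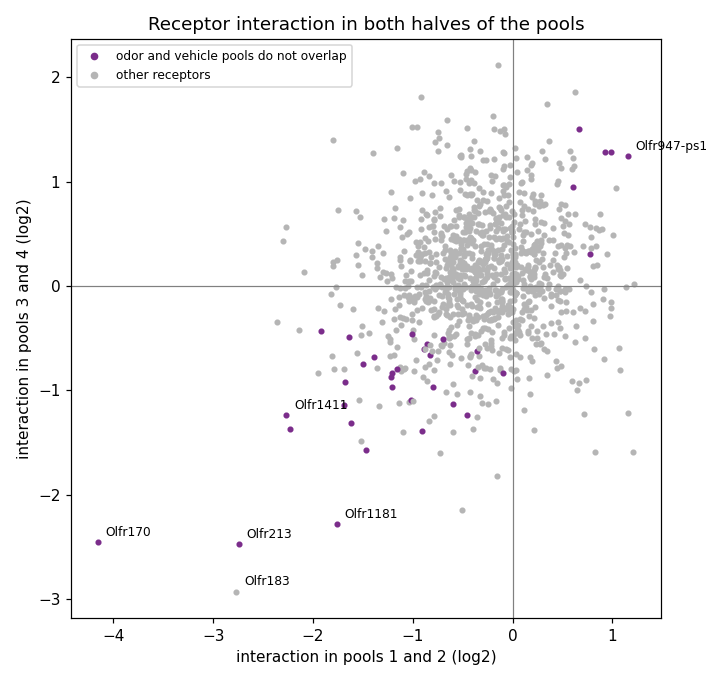
Interaction (log2) of the 1106 receptors in pools 1 and 2 (x axis) and in pools 3 and 4 (y axis); purple points are the 36 receptors whose 4 odor and 4 vehicle pools do not overlap. Most points lie left of 0 on the x axis (median -0.30) and slightly above 0 on the y axis (median 0.11), and Olfr170, Olfr213, Olfr183 and Olfr1181 lie far below 0 on both.

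Most receptors with no overlap had odor effects of opposite sign in the 2 sorts. Of the 30 whose pools did not overlap, 28 had a higher mean with odor in libraries titled GFP- and a lower one in those titled GFP+, and 2 were higher in both. All 6 with positive interactions were lower in libraries titled GFP- and higher in those titled GFP+. Taken with p below 0.05 unadjusted, the opposed pattern held for 72 of 78 and 15 of 18. Changes of opposite sign in the 2 sorts add up in an interaction, so this pattern is favoured by the way these receptors were picked. The odor effect on Olfr301 was -1.26 in libraries titled GFP+ and 0.16 in those titled GFP-, and on Olfr1051 it was 1.02 and -0.09. Olfr1181 had -0.25 and 1.78. These odor effects within a sort did not pass.

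Odorant receptor genes lie in clusters, and the order of the RefSeq gene table was used to place them. On chromosome 16, 9 of 36 receptors (25%) had a negative interaction at an unadjusted p below 0.05 and 0 a positive one, against 7.05% and 1.63% of all receptors, and the median was -0.27. The pools of Olfr167, Olfr170, Olfr190 and Olfr193 did not overlap. In the cluster from Olfr172 to Olfr209 it was 7 of 25 (28%, median -0.34). Olfr170 belongs to the cluster before that one, where its neighbour Olfr171 is near 0 and Olfr167 at -1.06 (SE 0.27). On chromosome 6 it was 5 of 27 (18.5%, median -0.34), with Olfr461, Olfr212, Olfr213 and Olfr215 not overlapping. Of these, Olfr461 was above background in only 8 of 16 libraries. Chromosome 15 had 2 of 9 (22.2%). These chromosomes were picked after the values were seen, and receptors of a cluster can share probes through sequence likeness.

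**Figure D4:**
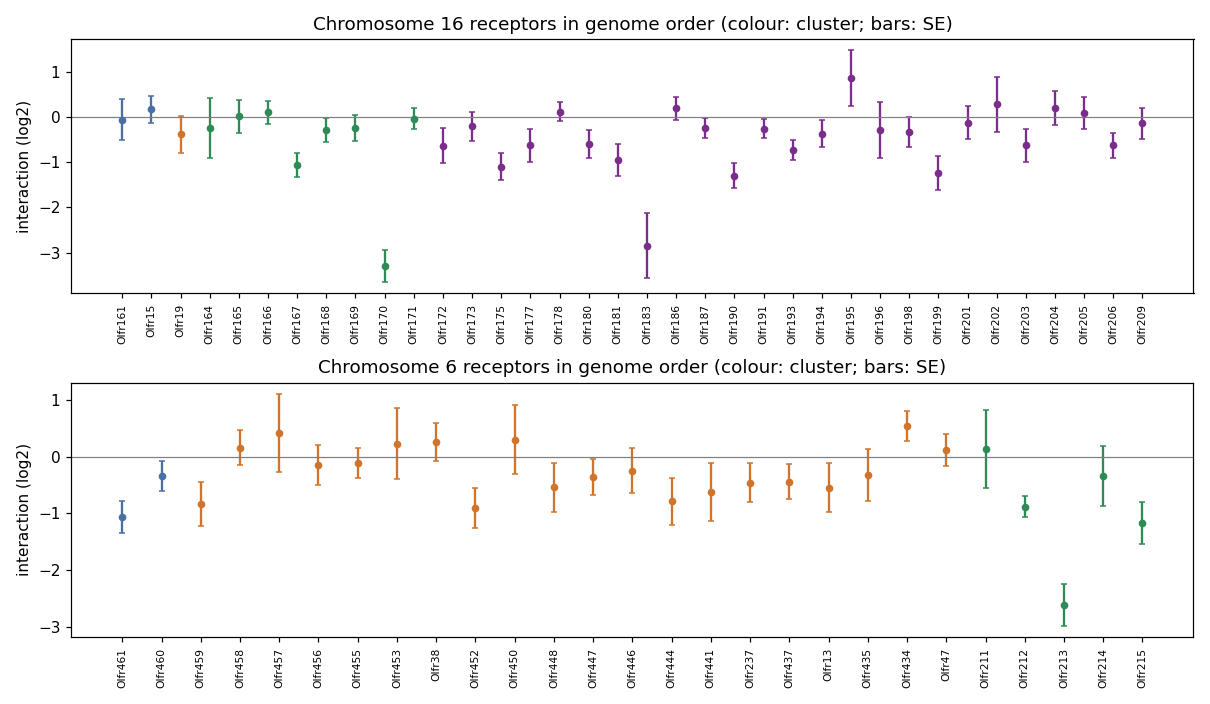
Interaction (log2, points, with SE as bars) of the 36 receptors of chromosome 16 and the 27 of chromosome 6 in genome order, coloured by cluster. Olfr170, Olfr183 and Olfr213 lie near -3, and their immediate neighbours lie closer to 0.

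Receptors known from gene targeting or with well studied ligands had no member called. Of 12 measured, 0 were called, and 1 had a negative and 0 a positive interaction at an unadjusted p below 0.05. The shares of all receptors were 7.05% and 1.63%, and the median of the 12 was -0.02. Olfr544, known as a receptor for azelaic acid, had sort differences of 0.03, -0.26, 0.00 and 0.17 in vehicle and -0.77, -1.11, -0.78 and -0.37 with odor, an interaction of -0.74 (SE 0.19, adjusted p = 0.959) without overlap. Of the 15 Taar genes, 1 was lower (Taar4) and 1 higher (Taar1) at that threshold, against 7.05% and 1.63% of all receptors, and their median was 0.11. Taar1 had 0.70 (SE 0.27) but was above background in 0 of 16 libraries.

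S100a5 itself showed no detectable interaction. Its sort difference was -0.86, -1.03, -1.45 and -1.38 in vehicle (mean -1.18 ± 0.28, SD, n = 4) and -1.37, -1.02, -1.39 and -1.24 with odor (mean -1.25 ± 0.17, SD, n = 4), and the arms overlapped. The difference of -0.07 (95% confidence interval -0.48 to 0.33) had p = 0.771 in an exact two-sided permutation test over the 70 assignments of pools, which can go no lower than 0.0286. With odor S100a5 read 0.35 higher in libraries titled GFP- and 0.28 higher in those titled GFP+, and neither passed.

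Among the other genes raised by neuronal activity, odor effects passed within a sort for Pcdh10, Camk2n1 and Sema7a, and no interaction did. Of 8 measured activity-dependent genes, 0 were called and 0 reached an unadjusted p below 0.05 in the interaction, with a median of -0.23. Pcdh10, Camk2n1 and Sema7a were singled out after values were seen, and the rest of the 8 passed in neither sort. Pcdh10, a protocadherin that is known to follow activity in these neurons, read 9.17, 9.86, 7.99 and 9.26 in vehicle and 12.14, 12.57, 11.61 and 11.91 with odor in libraries titled GFP-. It read 8.42, 8.46, 7.17 and 7.44 in vehicle and 10.20, 10.98, 9.91 and 10.65 with odor in those titled GFP+. It rose by 2.98 in the former (limma adjusted p = 0.00331) and by 2.56 in the latter (adjusted p = 0.0384), with no overlap in either, and the interaction was -0.42 (SE 0.26, adjusted p = 0.959).

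Camk2n1, an inhibitor of the kinase CaMKII, rose by 1.64 in libraries titled GFP- (limma adjusted p = 0.000798) and by 1.17 in those titled GFP+ (adjusted p = 0.0384), with an interaction of -0.48 (SE 0.26). Its sort difference was -0.40, 0.02, 0.04 and 0.35 in vehicle and -1.01, -0.40, 0.13 and -0.61 with odor. Sema7a, a semaphorin of olfactory axons, rose by 0.93 in libraries titled GFP- (adjusted p = 0.0342) and by 0.69 in those titled GFP+, where it did not pass, and the interaction of -0.24 (SE 0.17) does not show that the sorts differ. Together with Olfr170 these were the 4 probe sets called in libraries titled GFP- (0.018%), and Pcdh10 and Camk2n1 were the 2 called in those titled GFP+ (0.00901%). The 2 calls in libraries titled GFP+ rest on all libraries. They fell to 0 without odor pool 2 or 4 or any 1 vehicle pool, and to 1 without odor pool 1, and 6 were called without odor pool 3.

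Among the 5 probe sets of smallest p, 1 has no symbol in the annotation. It had a sort difference of 1.73 ± 0.08 (SD, n = 4) in vehicle and 0.55 ± 0.19 with odor, an interaction of -1.18 (SE 0.15, adjusted p = 0.114). Another unnamed probe set had the lowest interaction of all, -3.40 (SE 1.25), with an unadjusted p of 0.0224. Outside the receptors, the named gene nearest to passing was Prorp, the catalytic subunit of mitochondrial RNase P. It read 7.33, 7.06, 7.06 and 7.54 with odor in libraries titled GFP+ and 8.32, 8.03, 8.01 and 8.37 in those titled GFP-. Its sort difference was 0.16, 0.18, -0.24 and 0.04 in vehicle (mean 0.03 ± 0.19, SD, n = 4) and -1.0, -0.96, -0.95 and -0.83 with odor (mean -0.93 ± 0.08, SD, n = 4). The interaction was -0.97 (SE 0.15, adjusted p = 0.387), with -1.15 in pools 1 and 2 and -0.78 in pools 3 and 4.

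In the other direction, the flavin monooxygenases Fmo1 and Fmo5, enzymes that oxidise foreign compounds, had like values. Fmo1 had sort differences of -0.02, -0.03, -0.26 and 0.43 in vehicle and 1.06, 1.26, 0.77 and 1.13 with odor, an interaction of 1.02 (SE 0.19, adjusted p = 0.693). Fmo5 had -0.11, 0.56, -0.03 and -0.24 in vehicle and 1.01, 1.40, 0.88 and 1.16 with odor, an interaction of 1.07 (SE 0.21, adjusted p = 0.693). Both were above background in all 16 libraries and had near equal mean levels in the 2 sorts of the vehicle pools.

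Most of the other genes that the rule named lay at the background. Of the 10 named genes with the lowest p in each direction, 3 with a negative interaction (Luzp4, Actbl2 and V1rd19) and 6 with a positive one (Meox2, Sun5, Capns2, Cpt1b, Nmu and Nlrc4) never rose above it in any library, so their values carry no measured level. P2ry10, a receptor of lymphoid cells, had an interaction of -1.63 (SE 0.34), but it was above background in 3 of 16 libraries, all vehicle titled GFP+, and had -0.10 with values raised to that level. Cd209f, a lectin gene, had 0.89 as deposited and 0.23 with values so raised.

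**Figure D5:**
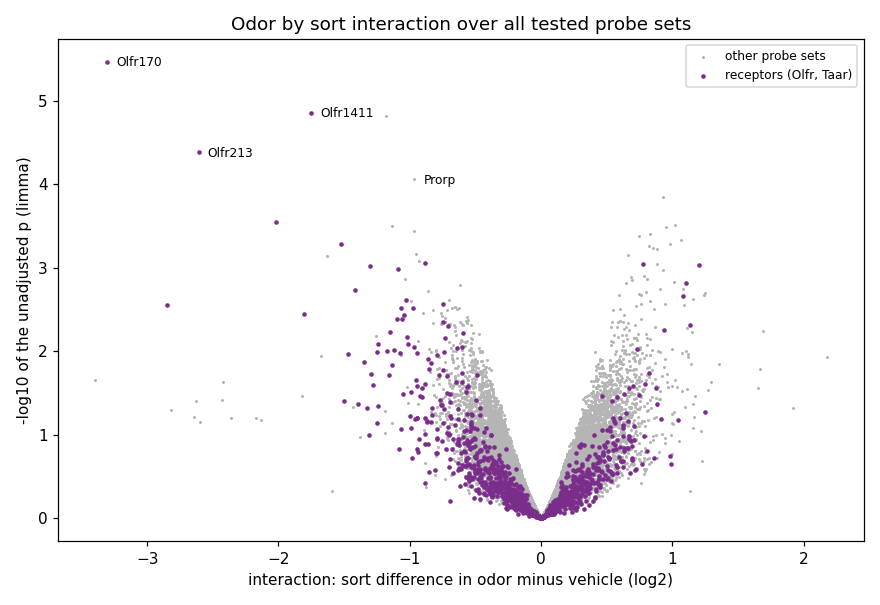
Interaction (log2, x axis) against -log10 of its unadjusted limma p (y axis) for the 22206 tested probe sets; the 1106 receptors are purple and all others grey. Olfr170, Olfr1411 and Olfr213 lie at the upper left with 1 unnamed probe set at -1.18, Prorp is the named non-receptor gene nearest to them, and the leftmost point is an unnamed probe set at -3.40.

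None of the 21 gene lists examined beside the Olfr and Taar families had a member called in the interaction. The genes of odor transduction, 17 measured, had a median interaction of -0.05 and 0 members at an unadjusted p below 0.05. At that threshold 2.46% of all probe sets were lower and 2.45% higher. The 13 genes of receptor trafficking and choice had a median of -0.03 and the 20 mature neuron markers -0.06, again with 0 such members in each. Cnga2, a subunit of the olfactory cyclic nucleotide-gated channel, was the transduction gene with the smallest p, at -0.26 (SE 0.14), with sort differences of 0.09, 0.07, -0.12 and -0.17 in vehicle and -0.45, -0.26, -0.23 and -0.23 with odor. The 18 immature neuron markers had a median of -0.09. Among them the early neuronal factor Nhlh1 had -1.19 (SE 0.54), with -2.05 in pools 1 and 2 and -0.33 in pools 3 and 4. It was above background in 1 of 8 libraries titled GFP-, and had -0.75 with values raised to that level. Trib3 had 0.53 (SE 0.19). The 24 axon guidance and adhesion genes had a median of -0.08, with 1 lower, the guidance receptor Robo1 at -0.67 (SE 0.26).

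The immediate-early genes, many of them transcription factors, answer stimulation within minutes in many cell types. They had a median interaction of 0.26 over 26 measured members, the highest of the lists. At an unadjusted p below 0.05, 0 were lower and 2 higher, where the shares over all probe sets were 2.46% and 2.45%. Nr4a3, an orphan nuclear receptor, read 7.81, 8.19, 6.70 and 8.49 in vehicle and 10.86, 10.09, 8.56 and 9.58 with odor in libraries titled GFP+. In libraries titled GFP- it was not above background in any of the 8. Its interaction was 1.69 (SE 0.48, adjusted p = 0.959), and the pool differences overlapped. Fosl2, of the AP-1 family, had 0.84 (SE 0.37). Both were the higher in libraries titled GFP+ in all 8 pools, on the side away from S100a5.

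Markers of several other cell types were also higher in libraries titled GFP+. Others were not: the median sort difference was -0.21 in vehicle and -0.18 with odor for 7 respiratory epithelium markers, -0.14 and -0.03 for 6 horizontal basal cell markers, and 0.13 and 0.09 for 8 endothelial markers. Of these lists 3, 5 and 6 members were above background in no library. The 17 neutrophil and macrophage markers had a mean sort difference of 5.80 to 7.08 in the vehicle pools and 5.60 to 7.26 in the odor pools. Their median interaction was 0.03, with 1 member higher at an unadjusted p below 0.05, the granule protein gene Ltf, at 0.88 (SE 0.36). Ltf had 1.31 in pools 1 and 2, 0.44 in pools 3 and 4, and 0.71 with values raised to the background level. Ngp, another granule protein gene, had -0.67 (SE 0.45). The 13 microvillar cell markers had a median of 0.22 and 1 higher (Moxd1, 0.59), and the 13 sustentacular markers 0.07 and 0. The 7 lymphocyte markers had 0.05 with 1 lower, the B cell gene Ms4a1 at -0.99 (SE 0.25). At the threshold of these counts, 2.46% of all probe sets were lower and 2.45% higher. Ms4a1 was above background in 4 of 4 vehicle and 1 of 4 odor libraries titled GFP+ and in 0 of those titled GFP-, and had -0.29 with values raised to that level. The 2 erythroid markers measured had -0.32. The part of these cells in the immediate-early values was not tested.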

How the data were processed

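Each array came with 1 log2 signal per probe set, which the authors deposited. The submitters' processing notes name Affymetrix Expression Console, and how it normalized the arrays is not given in the sources used. Array medians were 6.42 to 6.52 in libraries titled GFP- and 6.79 to 6.90 in those titled GFP+, and values were used as deposited. Probe sets were named by GEO's platform annotation: 19572 have 1 symbol, 0 several and 2634 none. A gene with several probe sets was named by the brightest.

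Differences within the 8 pools were fitted with limma 3.58.1 (lmFit, eBayes) in R 4.3.3, with Benjamini-Hochberg adjustment over 22206 probe sets and a threshold of 0.05. Odor effects within a sort came from a limma fit on all 16 arrays. It had no pool term, so its spread takes the 2 libraries of a pool as independent. The 2 libraries of a pool come from the same mice, and their deviations correlated at r = 0.16 to 0.40. The number of arrays limits precision. The p-values of the interaction measure the spread between pools, and those within a sort the spread between libraries of a group. The script was tested on simulated data.

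Named genes are S100a5, the 10 non-overlapping genes and receptors of smallest p in each direction (for receptors with a positive interaction, 6), and up to 2 per list, leaving out provisional genes. Members and lists were chosen with earlier results of these data known. Alternatives were the block, centring, quantile normalization, filters on dim probe sets, eBayes with trend and leaving out pools; the terms for pools 1 and 2 against 3 and 4 were added after seeing the data.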

Additional observations from a re-analysis of the deposited data

Results flagged for a closer look

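In 7 named genes every vehicle pool had a sort difference on one side of 0 and every odor pool on the other, and the interaction test did not pass for any of them. These 7 were named for pools that did not overlap and a small p, which favours such a change of side. Of all 22206 probe sets, 29 changed from above to below 0 with odor and 27 from below to above. The interaction was -3.30 for Olfr170 and -2.61 for Olfr213, both measured above background in all 16 libraries. It was -1.14 for Luzp4, 0.83 for Meox2, 0.75 for Sun5, 0.98 for Capns2 and 0.66 for Nmu, none of which was above background in any library.

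In 6 of 100 groups of 4 pool differences over 50 named genes, 1 pool stood far from the other three by Dixon's criterion, which chance alone meets in about 1 group in 20. Olfr1181 had 1.48 in odor pool 3, where the nearest other odor pool had 2.49. Olfr1051 had -3.22 in vehicle pool 4 against -3.93 for the nearest other. Cnga2 had -0.45 in odor pool 1 against -0.26. The remaining 3 were at the background: Actbl2 at -0.27 in vehicle pool 2, Cpt1b at -0.61 in vehicle pool 1 and Nlrc4 at 0.42 in odor pool 4.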

How the results depend on the processing

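The main limits are 4 pools an arm, unknown normalization and many dim probe sets. The interaction, with 0 calls as reported, gave 1 (Olfr170) without the pool as a replicate block, with median centring or with eBayes trend and robust, 2 (Olfr170 and Olfr213) with centring on receptors, 0 to 1 with 1 pool left out (1 without vehicle pool 3), and 4 in pools 1 and 2 alone, 1 of them a receptor. The adjusted p of Olfr170 ran from 0.000416 to 0.972 over all settings. Receptors lower at unadjusted p below 0.05 (78 as reported) were 48 without the pool block, 180 in pools 1 and 2, 50 in pools 3 and 4 and 59 to 123 with 1 pool left out. Receptors higher (18) were 10 without that block or with trend and robust, 39 with the number shared by odor and vehicle as a block, 45 with centring on receptors, 30 with a term for pools 1 and 2, 10 in pools 1 and 2, 108 in pools 3 and 4 and 16 to 48 with 1 pool left out. Over all probe sets, 547 were lower as reported, 274 without the pool block, 660 in pools 1 and 2 and 495 in pools 3 and 4. In the same order, 545, 379, 732 and 531 were higher. Same-numbered odor and vehicle pools correlated at -0.04 to 0.19, not all above 0.1, so the number was not taken as a pairing, although Kdm5d separates numbers 1 and 2 from 3 and 4 in both arms. The S100a5 difference turned to 0.04 with centring on receptors, 0.10 in pools 3 and 4 and ranged from -0.16 to 0.03 with 1 pool left out. Calls in libraries titled GFP+ (2) were 0 with median centring, 1 with the number as a block and 0 to 6 with 1 pool left out. Luzp4, Actbl2 and V1rd19 became 0.16 with values raised to background, which is the background's own shift, and Olfr160 became 0.05 in pools 3 and 4. The cause of the other changes was not tested. A per-gene exact permutation of 8 pools cannot go below p = 0.0286 and calls nothing over all probe sets.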

Other observations

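Some named genes that are no receptor, chosen after their values were seen, had interactions of 1 or more, with adjusted p of 0.959 and overlapping pools. Ptgs2, the inducible cyclooxygenase, had 1.92 (SE 0.85), Il1r2, the decoy receptor of interleukin-1, 1.67 (SE 0.58), the cytokine gene Osm 1.65 (SE 0.64) and Trem1 1.28 (SE 0.50), each above background in 8 of 16 libraries. Mmp8, a collagenase gene, had 1.22 (SE 0.65) and was above it in 9, and Hdc, the histidine decarboxylase, had 1.17 (SE 0.48) and was above it in 16. For Ptgs2 the sort difference was 4.95, 4.69, 1.79 and 4.55 in vehicle and 7.70, 6.65, 4.22 and 5.07 with odor. The neutrophil and macrophage list had a median of 0.03, with Ngp at -0.67 and C1qb at -0.34.

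Among named genes that are no receptor, 33 of 18399 (0.179%) reached 1 or more and 8 (0.0435%) -1 or less, against 0.203% and 0.293% of all probe sets. By non-overlapping pools 210 (1.14%) were higher and 319 (1.73%) lower, near the 1.19% and 1.74% of all probe sets. At an unadjusted p below 0.05 it was 425 (2.31%) and 402 (2.18%), near 2.45% and 2.46%. In pools 1 and 2 alone 271 reached 1 or more and 89 reached -1 or less, against 329 and 248 of all 22206 probe sets. In pools 3 and 4 alone 71 and 95 did, against 167 and 168. Cd44, an adhesion receptor, had -1.43 (SE 0.63) and was above background in 14 libraries, and Hnmt, which inactivates histamine, had -1.26 (SE 0.37) and was above it in 3.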
